A study of Phanerodontia chrysosporium with 18 samples.

Results

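The genes described here are the methanol oxidase and the formate dehydrogenases of the white-rot fungus Phanerochaete chrysosporium, 3 of the 13602 gene models in the deposited table. They were taken by protein number: 3004321, curated by the authors as an alcohol oxidase of family AA3_3 and as methanol oxidase, and 3031669 and 2906482, both curated as formate dehydrogenase. Strain RP-78 was grown on thin spruce sapwood sections laid in agar that supplied nitrogen and mineral salts but no carbon source, so all groups share strain, wood and medium. RNA was taken at 96 h and at 40 h after inoculation, from 3 pools of 20 sections at each time, and sequenced after poly-A selection. Each pool is 1 library that was run in 3 lanes; lanes were averaged, so n = 3 libraries per time.

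Lignin carries many methoxyl groups, and their removal during white-rot decay releases methanol. Methanol oxidase, a flavin enzyme of the glucose-methanol-choline (GMC) family, converts methanol to formaldehyde and hydrogen peroxide, the cosubstrate of lignin-attacking peroxidases. Formaldehyde, bound as a glutathione adduct, is oxidized by formaldehyde dehydrogenase on the way to formate. NAD-dependent formate dehydrogenase then oxidizes formate to carbon dioxide with formation of NADH. Formate also arises when oxalate decarboxylase splits oxalate, an acid that wood-decay fungi secrete. In methylotrophic yeasts the alcohol oxidase lies in peroxisomes together with catalase, which removes the peroxide.

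The domain annotation matched the curated names at family level only, as models curated otherwise carry the same domains. Methanol oxidase carried the N-terminal GMC domain (PF00732) at residues 7 to 328. Both formate dehydrogenases carried the NAD-binding domain of D-isomer specific 2-hydroxyacid dehydrogenases (PF02826), the family to which NAD-dependent formate dehydrogenase belongs, over 186 residues in each. That domain spans residues 179 to 364 of 3031669 and 126 to 311 of 2906482, so it starts 53 residues later in 3031669. The table lists no signal peptide probability for any of the 3. Most models have none, as it lists one for 1274 of 13602. It lists one for 3 of 39 models matched as GMC oxidoreductases and 0 of 8 with the 2-hydroxyacid dehydrogenase domain. For the lignin and manganese peroxidases it lists one for 14 of 15.

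All 3 genes were higher at 96 h than at 40 h, by 48.2-fold for methanol oxidase and by 10.4-fold and 2.35-fold for the formate dehydrogenases 3031669 and 2906482. These are ratios of mean RPKM, a read number scaled by gene model length and lane depth. RPKM is a share of the RNA in a bulk sample, so more cells that use a gene and more of its RNA per cell cannot be told apart. Every difference passed limma's moderated test at an adjusted p below 0.05 over 11725 tested models, and in all 3 genes each 96 h library lay above each 40 h library. Such changes were common in this comparison: 26.3% of tested models passed as higher and 35.6% as lower, and in 29.5% all 96 h libraries lay above all 40 h libraries. The split depended on scaling: 3088 models were higher and 4179 lower as deposited, but 3757 and 3712 after median-of-ratios scaling. The median log2 fold change of all tested models was -0.08.

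Methanol oxidase (3004321), the first enzyme of the route, had 6477, 6817 and 6758 RPKM in libraries 1, 2 and 3 at 96 h, against 139, 172 and 104 RPKM in those at 40 h. The 96 h libraries were close to each other and the 40 h libraries were spread more widely, with no overlap between the times. The mean was 6684 ± 182 RPKM at 96 h and 139 ± 34.3 RPKM at 40 h (SD, n = 3 each). The log2 fold change was 5.61 on the log2(RPKM + 1) scale (SE 0.17, adjusted p = 1.95e-07, limma), the 21st largest rise among the tested models. In level the gene ranked between 3 and 5 of 13602 models in the 96 h libraries, and between 775 and 1295 in the 40 h libraries. The authors' deposited table gives a ratio of 49.3, formed from geometric rather than arithmetic means. The p of 1.97e-09 in the authors' deposited table comes from a test for which the sources used here do not say what counted as a replicate.

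The formate dehydrogenase 3031669, which acts at the end of the route, had 4885, 3279 and 5312 RPKM in libraries 1, 2 and 3 at 96 h, against 358, 445 and 496 RPKM at 40 h. Library 2 was the lowest of the 96 h libraries and still lay far above every 40 h library. Its mean was 4492 ± 1072 RPKM at 96 h and 433 ± 70.0 RPKM at 40 h (SD, n = 3 each). The log2 fold change was 3.36 (SE 0.20, adjusted p = 4.75e-06, limma), the 105th largest rise. By level it ranked between 8 and 15 in the 96 h libraries and no lower than 340 in the 40 h libraries.

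The second formate dehydrogenase, 2906482, had 374, 291 and 549 RPKM in libraries 1, 2 and 3 at 96 h, against 124, 179 and 214 RPKM at 40 h. The times did not overlap, but the lowest 96 h library and the highest 40 h library were close, at 291 and 214 RPKM. Its mean was 405 ± 131 RPKM at 96 h and 172 ± 45.8 RPKM at 40 h (SD, n = 3 each). The log2 fold change was 1.21 (SE 0.26, adjusted p = 0.00451, limma), the 743rd largest rise. In level it ranked between 191 and 421 at 96 h and between 593 and 1053 at 40 h.

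**Figure D1:**
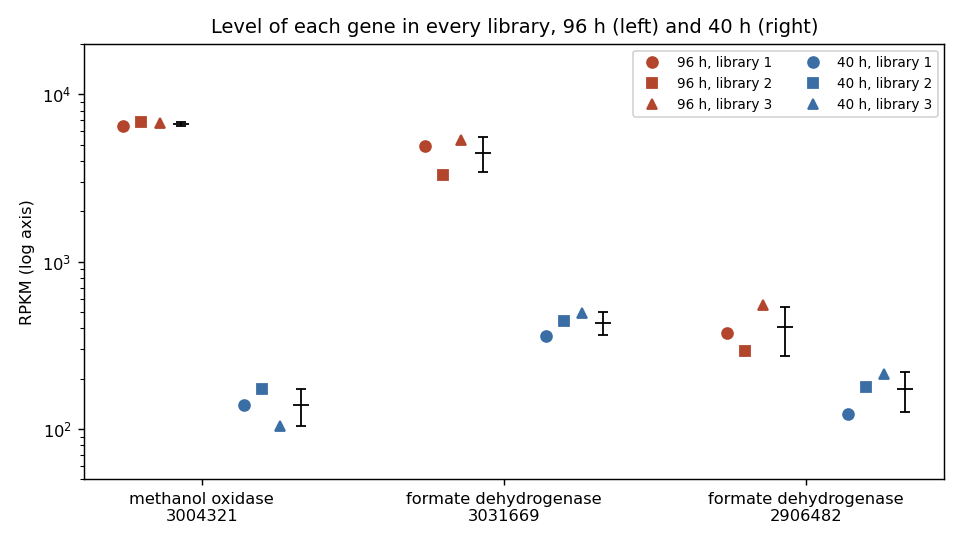
RPKM of methanol oxidase and the formate dehydrogenases on a log axis, with 96 h left of 40 h for each gene; each symbol is 1 library and the black bars are the mean and SD of 3 libraries. All 96 h symbols lie above the 40 h symbols of the same gene, with the widest gap for methanol oxidase (6684 and 139 RPKM) and the narrowest for 2906482 (405 and 172 RPKM).

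The spread between libraries exceeded that between lanes. The lanes of a library differed by a coefficient of variation of 0.242% to 1.199% for methanol oxidase, 0.135% to 0.965% for 3031669 and 0.853% to 1.64% for 2906482. Between libraries it was 2.72% at 96 h and 24.8% at 40 h for methanol oxidase, 23.9% and 16.2% for 3031669, and 32.5% and 26.6% for 2906482. Both formate dehydrogenases ordered the libraries in the same way, with library 3 highest, then 1, then 2 at 96 h, and library 3, then 2, then 1 at 40 h. Methanol oxidase did not follow that order: library 2 was its highest at both times.

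Among the 96 h libraries, number 2 was the least like the rest: over all tested models it correlated at 0.984 and 0.992 with the others, which correlated at 0.995 with each other. Without it the log2 fold changes were 5.60 for methanol oxidase, 3.57 for 3031669 and 1.43 for 2906482 (adjusted p = 1.21e-07, 2.94e-07 and 0.000879, limma). The deposited values carry no read totals. Depths relative to 40 h library 1 were estimated from 41 models that had no reads in some lanes. The lowest lane value with reads was compared between libraries, as if it stood for 1 read, and the median ratio was taken. These estimates were 0.48 to 0.709 at 96 h and 0.717 to 1 at 40 h. Summed RPKM over all models was 779148 to 788009 at 96 h and 827199 to 838614 at 40 h.

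Together the 3 genes took 1.49%, 1.32% and 1.62% of summed RPKM in libraries 1, 2 and 3 at 96 h, against 0.0740%, 0.0962% and 0.0978% at 40 h. Methanol oxidase alone took 0.852% ± 0.0263 at 96 h and 0.0166% ± 0.00419 at 40 h (SD, n = 3 each). The share of 3031669 was 0.573% ± 0.138 at 96 h and 0.0520% ± 0.00859 at 40 h, and that of 2906482 was 0.0517% ± 0.0171 and 0.0207% ± 0.00556. The exact two-sided permutation test gave p = 0.1 for each of the 3 shares, which is the smallest value that 3 against 3 libraries allow. This p stayed 0.1 when adjusted over these shares and those computed without the 10 models of highest mean. Methanol oxidase is among those 10 and was kept in the sum for its own share only.

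The genes did not rise by the same factor, and the order of their levels differed between the times. Methanol oxidase stood above 3031669 in every 96 h library, at 1.33, 2.08 and 1.27 times its RPKM in libraries 1, 2 and 3, and below it in every 40 h library, at 0.390, 0.388 and 0.209 times. Relative to 2906482 its RPKM was 17.3, 23.4 and 12.3 times as high at 96 h, and 1.13, 0.964 and 0.484 times at 40 h, where the pair did not differ beyond the spread between libraries. Of the formate dehydrogenases, 3031669 was the more abundant in all 6 libraries, at 13.1, 11.3 and 9.68 times the RPKM of 2906482 at 96 h and 2.90, 2.48 and 2.31 times at 40 h.

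On the log2 scale, the ratio of methanol oxidase to 3031669 was 0.60 ± 0.39 at 96 h and -1.65 ± 0.51 at 40 h (SD, n = 3 each), a difference of 2.26. The ratio to 2906482 was 4.09 ± 0.46 at 96 h and -0.31 ± 0.64 at 40 h, a difference of 4.40. The ratio of 3031669 to 2906482 was 3.49 ± 0.21 at 96 h and 1.35 ± 0.16 at 40 h, a difference of 2.14. None of these ratios overlapped between the times. The exact two-sided permutation test gave p = 0.1 for each of the 3 ratios, raw and adjusted over them, again the smallest value possible. The sources used here do not say how reads that fit similar genes were assigned, so levels of closely related models are uncertain to that extent.

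**Figure D2:**
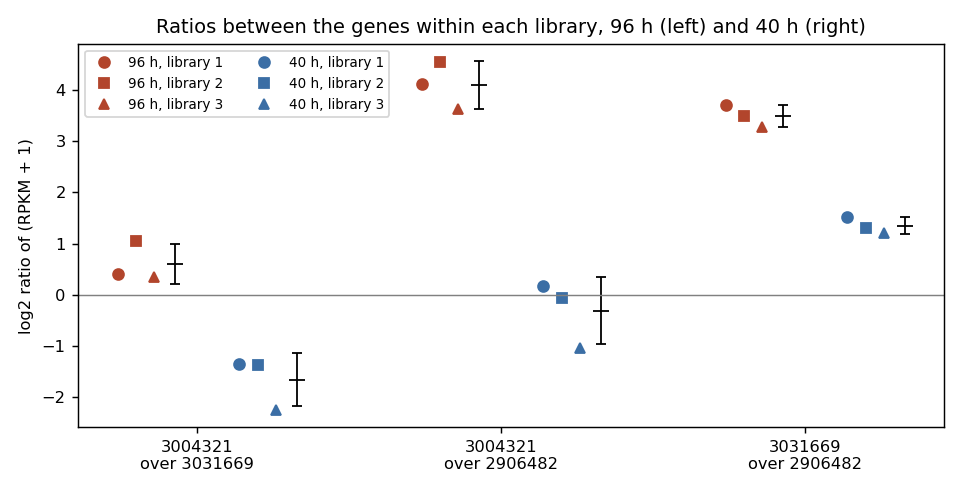
Log2 ratio of RPKM + 1 between the genes within each library, with 96 h left of 40 h for each pair; symbols are libraries and black bars the mean and SD of 3 libraries. Methanol oxidase lies above 3031669 (over 0) in all 96 h libraries and below it in all 40 h libraries, and the ratio between the formate dehydrogenases is 3.49 at 96 h and 1.35 at 40 h.

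Among its relatives, methanol oxidase was the GMC oxidoreductase with the highest level and the largest rise at 96 h. Of 39 models matched as GMC oxidoreductases, which include sugar and alcohol oxidases, 37 were tested, 9 rose (methanol oxidase included) and 16 fell, with a median log2 fold change of 0.05, so the counts lay near the 26.3% higher and 35.6% lower of all tested models. After median-of-ratios scaling 14 rose and 15 fell, beside 3757 and 3712 of all 11725 tested models under that scaling. The next largest rise, of 2963904, was 1.79 on the log2 scale, with 85.5 ± 4.46 RPKM at 96 h and 24.0 ± 2.19 RPKM at 40 h (adjusted p = 1.21e-06, limma). The largest falls were those of the fragment 2988597 (log2 fold change -2.01) and of 3026582 (-1.88). The other models curated as AA3_3 alcohol oxidases, which were looked up for comparison after their values were seen, stayed at lower levels. Model 2984883 had 65.8 ± 2.22 RPKM at 96 h and 51.9 ± 2.34 RPKM at 40 h (log2 fold change 0.34, adjusted p = 0.00263, limma). Model 2984061 had 19.8 ± 3.31 RPKM at 96 h and 18.9 ± 1.51 RPKM at 40 h and did not pass (adjusted p = 0.695, limma).

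**Figure D3:**
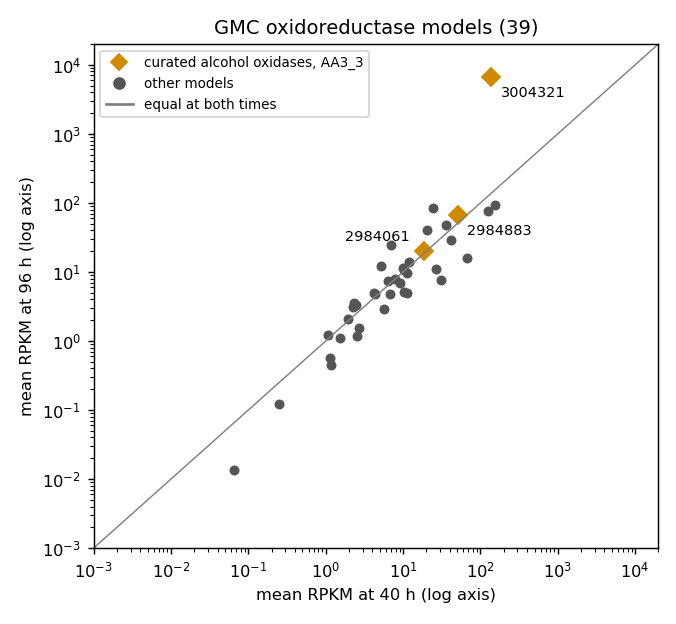
Mean RPKM of 39 GMC oxidoreductase models at 96 h (vertical) against 40 h (horizontal), both on log axes, with the curated AA3_3 alcohol oxidases as diamonds and the line of equal levels in grey. Methanol oxidase (3004321) lies far above the line at 6684 and 139 RPKM, while the alcohol oxidases 2984883 and 2984061 lie near it.

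Between methanol oxidase and formate dehydrogenase, formaldehyde is oxidized to formate. Names of further enzymes of this route (formylglutathione, esterase D) were also searched for, and no matched model is curated under them. Of 9 models with a formaldehyde annotation, all tested, 6 rose and 2 fell, against 26.3% and 35.6% of all tested models, and the median log2 fold change was 1.99 against -0.08. Model 2975262, curated as glutathione-dependent formaldehyde dehydrogenase and named here after its values were seen, had 1013, 1153 and 1243 RPKM at 96 h, against 236, 302 and 314 RPKM at 40 h. The times did not overlap (log2 fold change 2.002, SE 0.13, adjusted p = 7.48e-06, limma). A second model curated as formaldehyde dehydrogenase, 2987995, had 135, 57.5 and 112 RPKM at 96 h, against 4.96, 4.56 and 5.45 RPKM at 40 h (log2 fold change 4.01, SE 0.28, adjusted p = 9.37e-06, limma). Library 2 was again the lowest at 96 h.

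The other 7 models of that list carry a glutathione-dependent formaldehyde-activating domain and have no curated enzyme name. The counts and median of the list include them, and a role of these models in formaldehyde oxidation was not tested. Of these, 3033790 had 78.0 ± 5.77 RPKM at 96 h and 5.10 ± 0.154 RPKM at 40 h (log2 fold change 3.69). Model 2978835 went the other way, with 5.39 to 6.36 RPKM at 96 h and 15.9 to 22.0 RPKM at 40 h (log2 fold change -1.53). The second fall, of 2143160, was small (log2 fold change -0.38) and was lost when lane 1 alone was used (adjusted p = 0.0739, limma).

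Of 5 other tested models with the D-isomer specific 2-hydroxyacid dehydrogenase domain of the formate dehydrogenases, 4 rose and 1 fell, with a median log2 fold change of 0.67. Over all tested models 26.3% rose and 35.6% fell. Model 10706, without curated function, had 207 ± 43.6 RPKM at 96 h and 61.0 ± 2.48 RPKM at 40 h (log2 fold change 1.72), a larger rise than that of 2906482 at a lower level. The fall was that of 2919900, with a log2 fold change of -1.11. A further model, 1447051, had no reads in any lane and was not tested.

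Oxalate decarboxylases are a second source of formate. Of 6 models 1 rose and 3 fell, beside 26.3% and 35.6% of all tested models, with a median log2 fold change of -0.23; with a filter of 5 RPKM, which kept fewer of them, 1 rose and 1 fell. Model 2907675 had 187 ± 62.4 RPKM at 96 h and 2.47 ± 0.381 RPKM at 40 h (log2 fold change 5.71), and 2969988 had 11.1 ± 0.892 and 190.3 ± 35.7 RPKM (log2 fold change -3.97). The fall was smaller for 2917574 (-0.74) and for 3003453 (-0.50; lost with lane 1 alone, adjusted p = 0.104, limma), and 132024 and 2967599 did not pass (0.05 and 0.70). Without 96 h library 2, 2967599 passed as higher (log2 fold change 1.00, adjusted p = 0.0455, limma).

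Catalases, which split hydrogen peroxide, also differed among themselves. The abundant catalase 3006241 had 5302, 5014 and 5006 RPKM at 96 h, against 1233, 1395 and 1048 RPKM at 40 h. All 96 h libraries lay well above those at 40 h (log2 fold change 2.07, SE 0.13, adjusted p = 6.50e-06, limma). The catalase 3005721 had 3.76 ± 0.795 RPKM at 96 h and 18.9 ± 3.25 RPKM at 40 h (log2 fold change -2.06). Of the other 3 models, each below 7 RPKM in mean, 2013640 rose (0.46), and 3025652 did not pass (-0.33) but passed as lower without 96 h library 3 and with a block by column-name number (adjusted p = 0.0455 and 0.0275, limma). Model 3002838 passed as lower (-0.26, adjusted p = 0.0448, limma), a call lost under 11 of 18 alternatives, among them the omission of any library but 96 h library 2.

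Of 13 models annotated to the peroxisome 10 fell, 2 rose and 1 did not pass, against 35.6% lower and 26.3% higher of all tested models, with a median log2 fold change of -0.47, which was -0.39 after median-of-ratios scaling and -0.52 after quantile normalization. The peroxisomal biogenesis factor 11 model 2915162, of a family that takes part in peroxisome division, had 204, 255 and 242 RPKM at 96 h, against 551, 646 and 762 RPKM at 40 h (log2 fold change -1.47, SE 0.14, adjusted p = 4.79e-05, limma). The biogenesis factor 1 model 2100 had a log2 fold change of -1.20. The rises were small, at 0.40 for 2915755 and 0.23 for the peroxin-3 model 2978973, and the second was lost without 96 h library 3 or without 40 h library 1 or 3 (adjusted p = 0.0703 to 0.0740, limma).

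Formate can enter biosynthesis on folate carriers. Of 12 folate models 3 rose and 3 fell, no more in either direction than the 26.3% and 35.6% of all tested models, with a median log2 fold change of -0.12; without 96 h library 2, 5 fell. Formate-tetrahydrofolate ligase (3034009), which attaches formate to the folate carrier, had 186 ± 11.8 RPKM at 96 h and 85.1 ± 3.47 RPKM at 40 h (log2 fold change 1.12). Model 2046661, which carries a methylenetetrahydrofolate reductase domain but is curated as glycerol dehydrogenase, had a log2 fold change of 2.14. The glycine cleavage P-protein 2987501 and the thymidylate synthase 2954810 had log2 fold changes of -1.24 and -0.71.

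In methylotrophic yeasts formaldehyde is also fixed by a transketolase-like enzyme that yields dihydroxyacetone. Of 7 transketolase and dihydroxyacetone models 4 rose and 1 fell, set against 26.3% and 35.6% of all tested models, with a median log2 fold change of 0.92; without 96 h library 2, 2 fell. The dihydroxyacetone kinase 2966702 had 105 ± 7.37 RPKM at 96 h and 42.0 ± 3.45 RPKM at 40 h (log2 fold change 1.31). The rise of 2989759 was larger (2.21), but this model is curated as 2-oxoglutarate dehydrogenase. It matched through a transketolase central region domain, as did others without a curated name. Of the models with a transketolase N-terminal domain, 3022489, curated as transketolase 1, did not pass (log2 fold change -0.20, adjusted p = 0.092, limma). The other, 2968678, rose (1.27). Model 3002302 had a log2 fold change of -0.63.

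Peroxidases and a further peroxide source stand beside methanol oxidase in these libraries. Among 15 lignin and manganese peroxidases 14 rose, against 26.3% of all tested models. The list median on the log2 scale was 5.31, against 5.61 for methanol oxidase alone. LiPD (1386770) and LiPE (1716042) had the largest rises, at 8.63 and 8.54. The rises differed widely in size and level: the smallest was 0.49, with means of 5.84 RPKM at 96 h and 3.83 RPKM at 40 h. The remaining model, lipH (2918661), did not pass (15.4 RPKM at 96 h and 17.9 RPKM at 40 h), but passed as lower without 96 h library 2 and with lane 1 alone (adjusted p = 0.00568 and 0.0150, limma). Of 2 models matched as copper radical oxidases, glyoxal oxidase (11068) had 3826 ± 490.2 RPKM at 96 h and 21.0 ± 0.854 RPKM at 40 h. The other, CRO6 (2894758), had a log2 fold change of -0.51. The search used the words glyoxal oxidase and copper radical, so these 2 need not be the whole family.

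**Figure D4:**
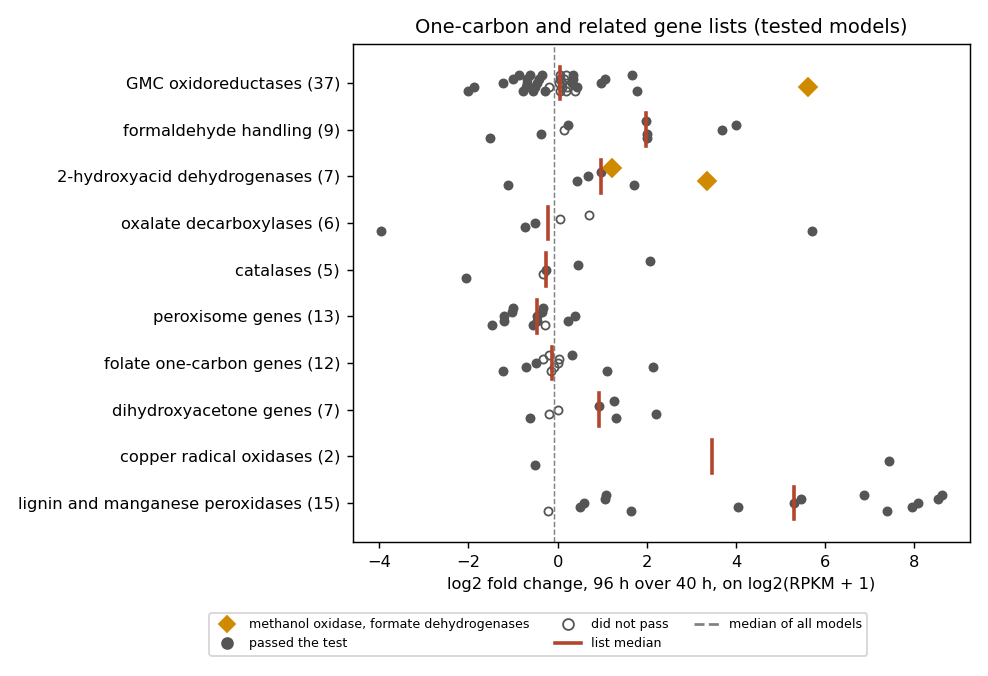
Log2 fold change of 96 h over 40 h for the tested models of 10 gene lists (number tested in brackets); diamonds are methanol oxidase and the formate dehydrogenases, filled circles other models that passed the test, open circles models that did not, red bars list medians, and the dashed line the median of all tested models. Methanol oxidase lies at 5.61, apart from the other GMC oxidoreductases, and most formaldehyde models lie right of the dashed line while most peroxisome models lie left of it.

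The models with the most similar profiles were found by the Euclidean distance between log2(RPKM + 1) values over the 6 libraries, each profile centred on its own mean. For methanol oxidase they were 2974246 (distance 0.44, Pearson r = 0.999), 2976939 (0.54, 0.997) and 2970080 (0.55, 0.997), all curated as hypothetical. Of these 2974246 was the most abundant, with 1710 ± 70.8 RPKM at 96 h and 28.3 ± 4.59 RPKM at 40 h. For 3031669 they were an O-methyltransferase, 3023907 (distance 0.36, r = 0.996), a hypothetical protein with a CinA domain, 2895789 (0.42, 0.998), and a carbohydrate esterase of family CE16, 3004047 (0.46, 0.994). For 2906482 they were an esterase, 2914880 (distance 0.46, r = 0.965), a short-chain dehydrogenase, 2909939 (0.47, 0.963), and a model with an alcohol dehydrogenase domain, 2979079 (0.47, 0.963). The 6 libraries share the step between 2 times, so high r values are common among genes that changed.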

How the data were processed

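Gene models were quantified by the authors as RPKM in 18 columns, 1 per library and lane, in which 0.002 stands for no reads; the deposited table gives no counts. CASAVA 1.8.2 is listed as a tool, per the submitters' processing notes; the sources used here do not give aligner, counter, genome build or annotation. Per the file headers further columns are mean RPKM by time from the authors, the ratio of those means, a p-value, a t statistic (a score) and the signal peptide probability, a fraction. The authors' 96 h mean equalled the geometric mean of the 9 lane columns within 0.5% or 0.002 RPKM for 13327 of 13602 models, and the 40 h mean for 13473.

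The barcode number in the sample titles was read as the library number, because 1 index sequence goes with each, and the 3 lanes of a library were averaged. A filter of 1 RPKM or more in 3 or more libraries kept 11725 models, which were fitted as log2(RPKM + 1) with limma 3.58.1 in R 4.3.3 (variance trend, no block), adjusted by Benjamini-Hochberg and called below 0.05; all 3 genes described passed the filter. The labels give the pools as separate samples, not as separate cultures, so a p-value here reflects only how these 6 libraries vary, which may be technical. On simulated data with 11725 models, 46 of 50 genes changed 1.5-fold and 49 of 50 changed 2-fold were recovered, with 16 false calls. The simulation changed far fewer models than passed here and gave both times the same, independent noise. In these data the median SD between libraries was 0.1195 at 96 h and 0.0715 at 40 h on the log2 scale. The simulated rates therefore need not hold here. Ratios and shares were tested with SciPy 1.17.1 by exact permutation.

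The genes described, the 10 text-pattern lists, tests and alternatives were chosen with earlier results of these data known. Named models are the 3 genes, from each list the 2 largest rises and 2 largest falls past the threshold (every model in lists of at most 6), and the 3 nearest profiles per gene. Other models are named as chosen after their values were seen: 2975262, lipH, the AA3_3 oxidases, the transketolase models 3022489 and 2968678, the untested 1447051 and the formate transporters.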

Additional observations from a re-analysis of the deposited data

How the results depend on the processing

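Methanol oxidase, 3031669 and 2906482 kept their direction and their side of the threshold in all 57 refits, 19 for each. Their log2 fold changes ranged from 5.42 to 5.78, from 3.18 to 3.57 and from 0.97 to 1.43, with the highest adjusted p 4.61e-05, 0.000306 and 0.0236 in limma, each without the filter on low values. The numbers of models higher and lower stayed within 1.5 times 3088 and 4179. Leaving out each library in turn kept the sign of every ratio and share difference. The difference in the share of methanol oxidase was 0.836 percentage points. It was 0.917 when the sum left out the 10 models of highest mean except methanol oxidase, which is among those 10. For 50 of the other tested models named (all but 3022489 and 2968678), 919 of 943 values kept direction and side. Sign changes occurred for models that had not passed: 132024 without 96 h library 1 (-0.029) and with lane 1 alone (-0.017), and 2984061 without 96 h library 2 (-0.059); the cause was not tested. Over all omissions of 1 library these ranged from -0.029 to 0.096 and from -0.059 to 0.17. Of the list counts, 24 of 380 moved by over 1.5 times, mostly counts of 1 or 2.

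With a replicate block by barcode number 3013 models were higher and 4108 lower, and with a block by the number in the column names, chosen after seeing the data, 2968 and 4056. Same-numbered libraries deviated together with correlations of 0.136, 0.133 and -0.102 by barcode number, and of -0.0971, 0.0757 and 0.218 by column name, so neither numbering was taken as pairing; by neither did every library correlate best with its own number. No block changed a call of the 3 genes. Among the same 50 other named models, calls changed for 3002838 by barcode and 3025652 by column name. Leaving out libraries for ratios and shares was also chosen after seeing the data. Low values may rest on fewer reads at 96 h, where the estimated relative depth was lower. The estimates for 96 h library 3 (0.709) and 40 h library 2 (0.717) were close.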

Other observations

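Formate transport was not among the lists and was looked up afterwards, by the curated name. Of the 2 models curated as formate transporters, 2916576, which carries a formate/nitrite transporter domain, had 381, 308 and 379 RPKM in libraries 1, 2 and 3 at 96 h, against 110, 110 and 104 RPKM at 40 h. Its mean was 356 ± 41.9 RPKM at 96 h and 108 ± 3.18 RPKM at 40 h (SD, n = 3 each; log2 fold change 1.71, SE 0.10, adjusted p = 3.44e-06, limma). The other, 2916385, had 2.02 ± 0.186 RPKM at 96 h and 2.35 ± 0.186 RPKM at 40 h and did not pass (log2 fold change -0.15, adjusted p = 0.150, limma). The domain family of the first model also transports nitrite, and the substrate was not tested here.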
